A study of Homo sapiens with 30 samples.

Results

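The untreated chromatin of OCI-Ly1, a cell line from a human diffuse large B-cell lymphoma, was described by placing the histone marks H3K4me3 and H3K27ac side by side. The 4 libraries kept were those of cells given only the vehicle, DMSO at 0.01%, with 2 libraries for H3K4me3 (H3K4me3_DMSO) and 2 for H3K27ac (H3K27ac_DMSO). They were 4 of the 30 libraries of a chromatin immunoprecipitation and sequencing (ChIP-seq) series, in which the other libraries held cells treated with the demethylase inhibitor JIB-04, the marks H3K9me2 and H3K9me3, and input chromatin, none of which was analysed here. All groups were the same cell line, so the values describe 1 line and not B-cell lymphoma at large. The labels number the libraries of a mark 1 and 2 without saying that they came from separate cultures, so the spread between them may be technical. The regions were the 21268 H3K4me3 and 63580 H3K27ac intervals of the deposited consensus peak sets. How the consensus was made is not given in the sources used here, so an interval need not have been called in a DMSO library.

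H3K4me3 is trimethylation of lysine 4 on histone H3, deposited mainly around active and poised gene starts, and H3K27ac is acetylation of lysine 27 on the same histone, found at active promoters and at active enhancers. Very wide H3K4me3 domains and long stretches of H3K27ac are known to lie over genes that define a cell's identity. Germinal centre B cells, the cells from which such lymphomas arise, are known for the transcription factors PAX5 and BCL6, the B-cell receptor chains CD79A and CD79B, and the immunoglobulin loci.

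The sequences of 8 promoters are printed as examples of each combination of the marks, chosen with their marks and sequences known. They show how far CpG content ranged among the promoters of B-cell genes and need not be typical of their classes. Each is the 250 bases upstream of a start of the gene in RefSeq (GRCh38.p14), written 5′ to 3′ along the gene, with every CpG dinucleotide in capitals. Where a gene had several listed starts, the one with most marks was taken, and then the one farthest upstream. The start used for CXCR5 lies inside the gene. PAX5, S1PR2 and GAPDH had both marks and many CpG, and CD79A and RGS13 had both marks and few CpG. VPREB3 had H3K4me3 only, in a peak shared with ZNF70. CXCR5 had H3K27ac only, and SERPINA9 had neither mark at its start. A mark counted when its peak reached within 1000 bp of the start, and the CXCR5 peak did not reach the bases printed.
PAX5, chr9:37034269-37034518, minus strand, 27 CpG: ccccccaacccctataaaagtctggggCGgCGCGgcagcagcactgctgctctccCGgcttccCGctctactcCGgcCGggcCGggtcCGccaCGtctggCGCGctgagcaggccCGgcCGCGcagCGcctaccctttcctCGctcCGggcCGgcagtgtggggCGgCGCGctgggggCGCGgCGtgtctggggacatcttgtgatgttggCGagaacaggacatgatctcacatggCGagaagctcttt
S1PR2, chr19:10231332-10231581, minus strand, 27 CpG: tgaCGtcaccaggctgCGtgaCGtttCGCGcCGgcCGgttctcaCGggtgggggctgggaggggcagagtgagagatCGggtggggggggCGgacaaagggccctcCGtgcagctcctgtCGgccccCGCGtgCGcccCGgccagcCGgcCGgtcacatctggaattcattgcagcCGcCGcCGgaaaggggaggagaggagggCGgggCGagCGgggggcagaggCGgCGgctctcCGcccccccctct
GAPDH, chr12:6535014-6535263, plus strand, 22 CpG: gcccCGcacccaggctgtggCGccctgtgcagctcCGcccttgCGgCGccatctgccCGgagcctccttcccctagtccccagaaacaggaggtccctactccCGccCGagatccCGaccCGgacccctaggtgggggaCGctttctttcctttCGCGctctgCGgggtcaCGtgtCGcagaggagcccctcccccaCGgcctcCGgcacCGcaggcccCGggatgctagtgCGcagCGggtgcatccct
CD79A, chr19:41877029-41877278, plus strand, 4 CpG: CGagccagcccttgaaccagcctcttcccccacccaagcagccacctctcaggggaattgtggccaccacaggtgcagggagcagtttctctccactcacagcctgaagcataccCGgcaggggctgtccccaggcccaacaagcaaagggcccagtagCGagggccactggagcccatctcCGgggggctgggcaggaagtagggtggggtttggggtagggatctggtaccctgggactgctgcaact
RGS13, chr1:192635897-192636146, plus strand, 1 CpG: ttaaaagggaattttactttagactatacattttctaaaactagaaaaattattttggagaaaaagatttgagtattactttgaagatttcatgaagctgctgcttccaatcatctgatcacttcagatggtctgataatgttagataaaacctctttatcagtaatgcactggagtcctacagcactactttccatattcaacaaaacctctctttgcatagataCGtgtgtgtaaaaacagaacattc
VPREB3, chr22:23754426-23754675, minus strand, 1 CpG: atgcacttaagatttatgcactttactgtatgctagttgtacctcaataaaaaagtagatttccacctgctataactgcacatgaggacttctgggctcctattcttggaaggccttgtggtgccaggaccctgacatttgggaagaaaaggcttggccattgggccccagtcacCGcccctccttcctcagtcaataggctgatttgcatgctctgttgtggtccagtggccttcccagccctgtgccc
CXCR5, chr11:118893142-118893391, plus strand, 7 CpG: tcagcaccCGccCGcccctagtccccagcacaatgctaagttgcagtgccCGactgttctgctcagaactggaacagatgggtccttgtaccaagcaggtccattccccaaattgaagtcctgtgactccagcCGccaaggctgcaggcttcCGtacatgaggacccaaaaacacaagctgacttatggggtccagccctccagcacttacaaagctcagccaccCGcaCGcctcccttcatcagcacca
SERPINA9, chr14:94476198-94476447, minus strand, 1 CpG: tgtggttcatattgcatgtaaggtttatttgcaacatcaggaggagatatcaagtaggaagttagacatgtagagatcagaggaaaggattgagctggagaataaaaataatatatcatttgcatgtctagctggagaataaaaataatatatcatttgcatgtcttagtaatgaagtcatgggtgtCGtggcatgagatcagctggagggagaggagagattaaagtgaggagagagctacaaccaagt
The 8 promoters held from 1 CpG (RGS13, VPREB3 and SERPINA9) to 27 CpG (PAX5 and S1PR2), and the comparison with all promoters is given further on.

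Levels are reads per 1000000 reads in all peaks of that mark, divided by the length of the peak in kb (RPKM), so they compare regions within a mark and not the absolute amount of a mark with that of the other. The reads in peaks numbered 12327122 and 10292608 in the H3K4me3 libraries and 4360660 and 5073651 in the H3K27ac libraries. The median count per peak was 324 and 263 for H3K4me3 but only 21 and 23 for H3K27ac, and the median replicate coefficient of variation was 4.38% and 13.7%. Over all peaks the Spearman correlation between the libraries of a mark was 0.989 for H3K4me3 and 0.752 for H3K27ac. A single weak H3K27ac peak was therefore measured with much larger error than a single H3K4me3 peak. Longer peaks also had higher levels, with a Spearman correlation of 0.772 across H3K4me3 peaks and 0.624 across H3K27ac peaks, which describes the peaks and carries no p.

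Most H3K4me3 lay at gene starts under H3K27ac, whereas most H3K27ac lay elsewhere. Of all H3K4me3 peaks 77.6% overlapped an H3K27ac peak by at least 1 bp, but only 31.3% of H3K27ac peaks overlapped H3K4me3. A peak was placed at a gene start when it reached within 1000 bp of the start of a protein-coding or long noncoding gene. For 10956 of the 38151 genes no start was listed and either gene end was used, so a peak at the far end of such a gene also counted. All genes of chromosome 8 were among these. On chromosomes 1 to 22 and X, 10881 H3K4me3 peaks (51.6%) were at gene starts with H3K27ac, and they held 89.0% of the mark's reads. These active promoters had a median H3K4me3 level of 32.9 and 32.8 RPKM in the libraries and a median width of 2233 bp. The 2011 H3K4me3 peaks at gene starts without H3K27ac were weaker and narrower, with median levels of 4.44 and 4.33 RPKM and a median width of 919 bp. The 5527 H3K4me3 peaks with H3K27ac but away from gene starts had median levels of 5.41 and 5.17 RPKM, and the 2683 peaks with neither had 3.23 and 3.13 RPKM.

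H3K27ac divided differently. The largest class was 41620 peaks (65.8%) away from gene starts and without H3K4me3, here called enhancer-like from position alone, but these peaks were short, with a median width of 405 bp, and held 35.6% of the reads. The 13353 H3K27ac peaks at gene starts with H3K4me3 were 21.1% of peaks and held 40.7% of the reads. Their median levels were 14.7 and 15.04 RPKM, against 8.28 and 7.48 RPKM for the enhancer-like class, so the order of the classes was the same in both libraries. Another class of 6440 H3K27ac peaks lay away from gene starts but touched H3K4me3, at median levels of 11.9 and 11.9 RPKM. The meeting of the marks rose with strength in both directions. From the weakest to the strongest quintile of H3K4me3 peaks the share under H3K27ac went from 44.9% to 99.95%, and for H3K27ac the share under H3K4me3 went from 7.25% to 73.4%.

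**Figure D1:**
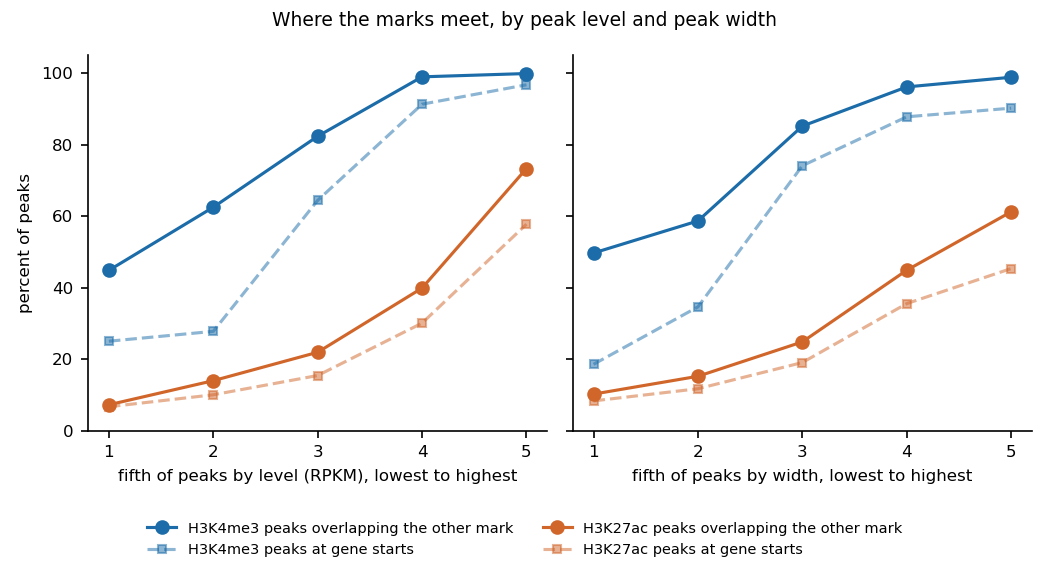
Percent of peaks that overlap the other mark (solid lines, circles) and that lie at gene starts (dashed lines, squares), for H3K4me3 and H3K27ac peaks on chromosomes 1 to 22 and X sorted into quintiles by level (left) or width (right). In the strongest quintile 99.95% of H3K4me3 peaks and 73.4% of H3K27ac peaks overlapped the other mark.

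Of the 10 widest H3K4me3 domains at gene starts, those at PAX5 and BCL6 belonged to genes of the B-cell lists. The widest, 15463 bp, lay at RHOH, a small GTPase of blood cells, at chr4:40189951-40205413. PAX5, the factor that commits cells to the B lineage, followed with 14615 bp at chr9:37023700-37038314. BCL6, the repressor that drives the germinal centre programme, had 11694 bp at chr3:187735884-187747577, and BCL2, the survival protein, had 11538 bp at chr18:63312001-63323538. The other 6 of the 10 widest were at ZNF608 (11066 bp), NR3C1, the glucocorticoid receptor (10707 bp), the septin SEPTIN9 (10703 bp), ARPP21 (10634 bp), NFATC1, a calcium-regulated transcription factor (10541 bp), and SEL1L3 (10516 bp). The next peak in that order was 10464 bp wide, so the rank of 10 marks no gap.

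Width and level were different properties of these domains. RHOH stood at 31.7 and 30.4 RPKM, PAX5 at 33.3 and 32.0 RPKM, BCL6 at 31.5 and 30.7 RPKM and BCL2 at 38.2 and 36.5 RPKM. These values are close to the median of 32.9 and 32.8 RPKM for all H3K4me3 gene starts with H3K27ac, so the widest domains were wide without being dense. ARPP21 was the lowest of the 10, at 7.76 and 6.78 RPKM. By strength PAX5 ranked at the 48.1 percentile of protein-coding genes with H3K4me3 at their start, and by width at the 99.99 percentile.

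Wide H3K4me3 was common at B-cell genes, and common at ubiquitous genes too. Of the 60 genes in the 3 B-cell lists (B-lineage transcription factors, germinal centre genes, and B-cell receptor and surface genes), 32 had a peak of 4000 bp or more at their start, or 53.3%, against 5.58% of 19974 protein-coding genes. The list of 20 ubiquitous genes, such as ACTB and GAPDH, had 12, or 60%. The median of the widest peak was 4439.5 bp in the B-cell lists and 4320.5 bp in the ubiquitous list, against 2256 bp over all protein-coding genes with H3K4me3. The transcription factors alone had a median of 5382 bp and 70% at 4000 bp or more. At 6000 bp or more stood 10 of the 60 B-cell genes and 1 of the 20 ubiquitous genes. These are small counts, and the difference was not tested. At 8000 bp or more stood 6 of the 60 B-cell genes, among them TCF4 (9357 bp), BCL11A (9111 bp) and EBF1 (8280 bp), while the widest ubiquitous gene was TUBB with 6896 bp. Over all protein-coding genes 0.275% reached 8000 bp.

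**Figure D2:**
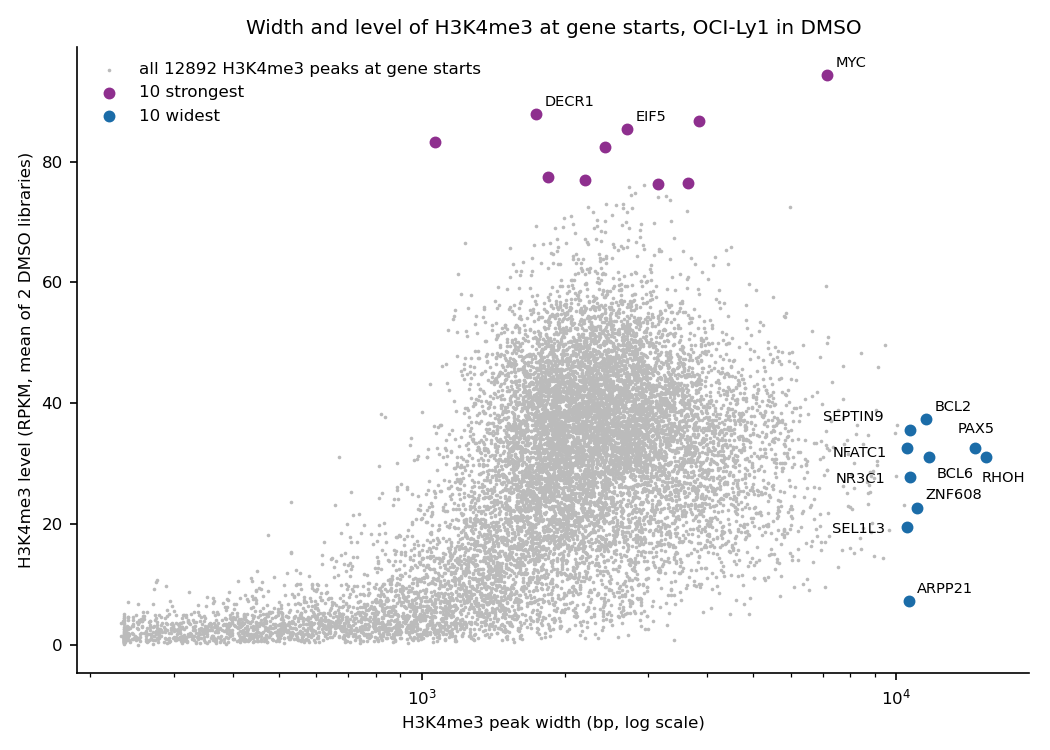
Width in bp (log axis) and level in RPKM (mean of 2 libraries) of the 12892 H3K4me3 peaks at gene starts, 1 point a peak, with the 10 strongest in purple and the 10 widest in blue. The 10 widest, from 10516 bp at SEL1L3 to 15463 bp at RHOH, sit at middling levels, and the 10 strongest have widths up to 7153 bp.

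The 10 strongest H3K4me3 gene starts were on chromosomes 8 and 14. Genes of chromosome 8 had no listed start and were placed by either gene end, so starts inside them would be missed. The strongest gene start was that of MYC, the growth-promoting transcription factor, at chr8:127733902-127741054 with 90.8 and 97.7 RPKM. DECR1, an enzyme of mitochondrial fatty acid oxidation, followed at 84.3 and 91.3 RPKM, the shared peak of CCNE2 (cyclin E2) and NDUFAF6 at 83.2 and 90.3 RPKM, and EIF5, a translation initiation factor, at 82.3 and 88.4 RPKM. The remaining 6 were IMPA1, INTS8, DPY19L4, KLC1, TP53INP1 and the shared peak of BAG5 and COA8, whose lowest library value was 73.2 RPKM. The last of the 10 had a mean of 76.2 RPKM and the next peak 76.1 RPKM, so no gap follows the 10. In all 10 the second library read higher than the first. Of the 10 peaks 7 were on chromosome 8 and 3 on chromosome 14, and of the 100 strongest 30 were on chromosome 8 and 4 on chromosome 14. All 10 carried H3K27ac, at MYC with 72.4 and 75.0 RPKM and at KLC1 with 24.4 and 25.2 RPKM, the highest and lowest of the 10 partner peaks.

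Levels differed between whole chromosomes. The median H3K4me3 level of gene starts with both marks was 42.9 RPKM on chromosome 7 and 35.9 RPKM on chromosome 8, against 33.2 RPKM on chromosome 14 and 19.8 RPKM on chromosome X. Chromosomes 16 and 20 had 37.6 and 36.2 RPKM. The chromosome 7 median was 1.31 times that of all such peaks. H3K27ac at gene starts was also highest on chromosome 7 (19.4 RPKM) and lowest on X (8.995 RPKM), with 17.6 RPKM on chromosome 8. Other chromosomes differed between the marks, and 16 and 20 ranked only 10 and 17 of the 23 in H3K27ac. Chromosomes 3 and 10 were low in H3K27ac at gene starts, with 11.5 and 11.6 RPKM (ranks 22 and 21). Their H3K4me3 medians were 32.6 and 28.1 RPKM (ranks 17 and 22). DNA copy number was not tested, since the input libraries were not analysed here, and levels on these chromosomes are given with that limit. Leaving out chromosomes 7, 8 and 14, a choice made after these ranks were seen, the strongest gene starts were the shared one of FAM210A and RNMT (73.0 and 75.7 RPKM) and that of SDHD and TIMM8B (69.3 and 75.4 RPKM). SDHD is a subunit of respiratory complex II, and the rest of that list held further housekeeping genes such as COX4I1, DLAT, FDX1 and RPL13. No B-cell list gene was among the 10 strongest in either ranking.

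The B-lineage transcription factors carried both marks at 19 of 20 gene starts. A gene's level is that of its strongest peak at any of its listed starts, or at either gene end where no start was listed. At TCF4, IKZF3 and BTK the strongest peaks of the marks lay at different places along the gene. The highest H3K4me3 among them was at POU2AF1, the B-cell coactivator of octamer factors, with 52.2 and 52.7 RPKM, which also had the highest H3K27ac of the list, 43.98 and 45.6 RPKM. IKZF3, the Ikaros family member Aiolos, had less H3K4me3 (21.0 and 19.9 RPKM) than IKZF1, Ikaros (36.9 and 35.8 RPKM). The H3K27ac peak over that H3K4me3 was lower too, 17.9 and 14.9 RPKM at IKZF3 against 29.9 and 31.5 RPKM at IKZF1, and the libraries of the genes did not overlap in either mark. A stronger H3K27ac peak of IKZF3, 36.3 and 38.3 RPKM, lay at the opposite end of the gene. TCF4, an E protein, had the lowest H3K4me3 of the list, 14.7 and 14.1 RPKM. EBF1, an early B-cell determinant, had 37.3 and 35.4 RPKM of H3K4me3 and 24.2 and 26.6 RPKM of H3K27ac. ETS1 had neither mark at its start, although 30 H3K27ac peaks covered 30.7% of its gene body and the 10000 bp on each side. The start of ETS1 rests on the ends of the gene as listed, so a promoter inside the gene would be missed.

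Germinal centre genes had both marks at 18 of 20 starts, over a wide range of levels. EZH2, the H3K27 methyltransferase, had 48.7 and 49.4 RPKM, and CXCR4, the dark-zone chemokine receptor, had 47.4 and 48.7 RPKM of H3K4me3. LMO2, a transcription cofactor, had the lowest H3K4me3 of the list, 1.44 and 0.968 RPKM under 10.2 and 12.7 RPKM of H3K27ac. Its start, too, was taken from the ends of the listed gene. CXCR5, the follicle-homing chemokine receptor, had H3K27ac (12.7 and 15.8 RPKM over 486 bp) within 1000 bp of a listed start inside the gene. That peak, at chr11:118891986-118892471, did not reach the bases printed above, and no H3K4me3 peak lay at any listed start. SERPINA9 had neither mark. DTX1, a regulator of Notch signalling, lay under the longest H3K27ac peak of the list, 20838 bp at 39.6 and 40.4 RPKM.

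B-cell receptor and surface genes had both marks at 17 of 20 starts. LYN, a receptor-proximal kinase, was highest with 53.7 and 55.2 RPKM of H3K4me3. The signalling chains CD79A and CD79B had 35.1 and 34.7 RPKM and 46.9 and 47.1 RPKM of H3K4me3, beside H3K27ac of 24.7 and 27.9 RPKM and 25.2 and 26.9 RPKM, so they differed in H3K4me3 and overlapped in H3K27ac. MS4A1, which encodes CD20, had 26.9 and 24.2 RPKM of H3K4me3. VPREB3, a surrogate light chain family member, had H3K4me3 at 20.0 and 19.9 RPKM over 4048 bp. It had no H3K27ac peak within 1000 bp of its start, although the H3K4me3 peak touched one farther off. That H3K4me3 peak was also placed at the start of ZNF70, so it need not belong to VPREB3 alone. CR2, the complement receptor CD21, had weak H3K4me3 only (5.84 and 6.59 RPKM), and FCER2, which encodes CD23, had neither mark.

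Beside these, the plasma cell list had both marks at 9 of 10 starts, and lists of other lineages had them rarely. IRF4, needed for plasma cell differentiation, had the highest H3K4me3 of all list genes, 58.0 and 59.5 RPKM. PRDM1, the plasma cell repressor Blimp-1, was low at 9.49 and 8.66 RPKM, and SDC1, the plasma cell surface marker CD138, had H3K4me3 only, at 1.27 and 1.07 RPKM. The T-cell, myeloid, erythroid and megakaryocyte, and non-blood lists together had both marks at 5 of 46 starts: CD3D, CD8A, LCK, CEBPB and EPCAM. LCK, a lymphocyte kinase, had the highest H3K4me3 of them, 27.5 and 26.7 RPKM, under H3K27ac of 25.3 and 26.0 RPKM. EPCAM, an epithelial adhesion molecule, had 23.9 and 24.8 RPKM of H3K4me3 and 25.6 and 29.7 RPKM of H3K27ac. A further 7 of the 46 had H3K4me3 only and 2 had H3K27ac only. Neither mark was at the start of 10 of the 12 myeloid genes, such as MPO, ELANE, CEBPA and CSF1R, and CD14 had H3K4me3 only (8.45 and 6.96 RPKM). In the erythroid and megakaryocyte list 9 of 10 had neither, GATA1 and HBB among them. The exception, the erythroid factor KLF1, had 14.4 and 14.9 RPKM of H3K4me3, and the peak overlapped H3K27ac of 13.3 and 11.99 RPKM beyond 1000 bp from the start. The 3 B-cell lists had both marks at 54 of 60 starts (90%), against 54.3% of all protein-coding genes, 17.0% of long noncoding genes and all 20 ubiquitous genes. The defining B-cell genes PAX5, CD79A and MS4A1 all had both marks.

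**Figure D3:**
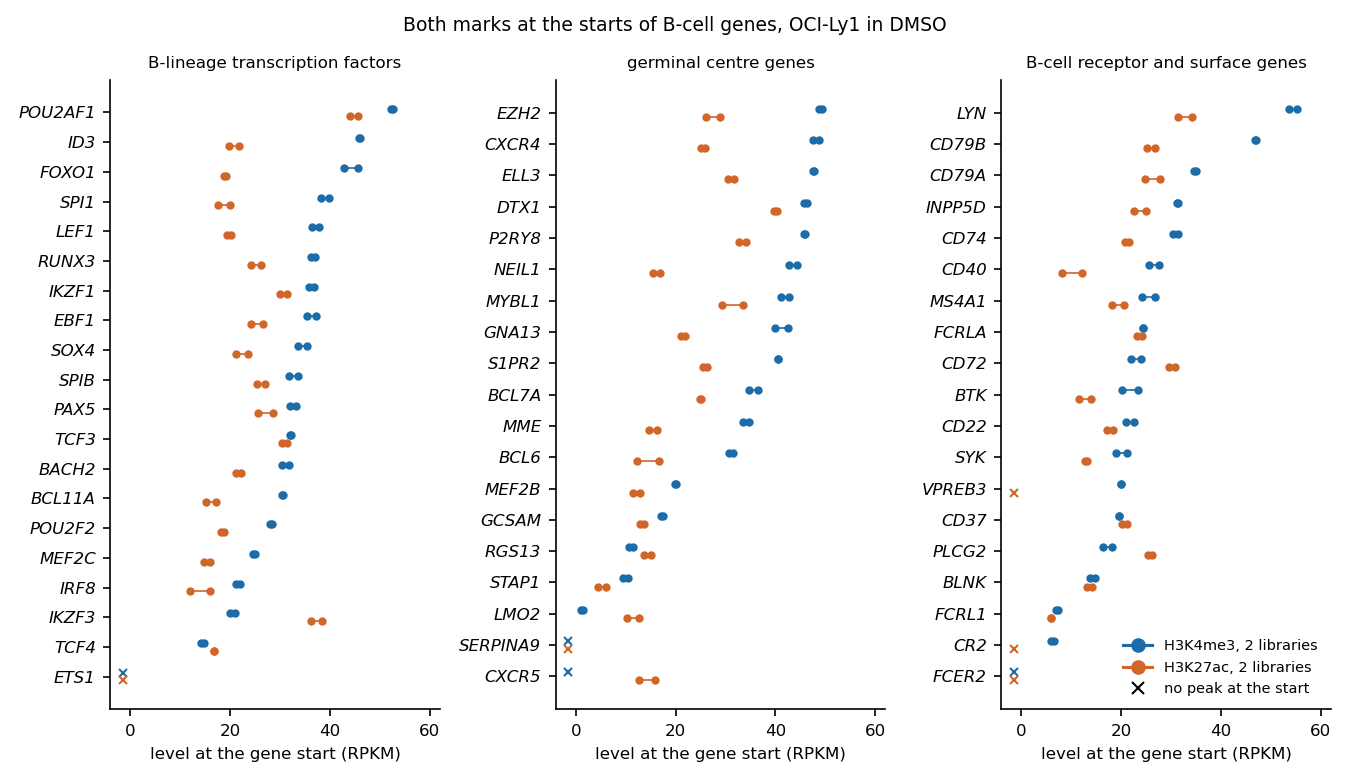
Level in RPKM of the strongest peak at any listed gene start, or at either gene end where no start was listed, for genes of the 3 B-cell lists. H3K4me3 is in blue and H3K27ac in orange, 1 dot a library joined by a line, with a cross where no peak of the mark lay there. Each mark is scaled to its own reads in peaks, so the axis does not compare the amounts of the marks. On it H3K4me3 has the larger number at most genes, and CD37, CD72, PLCG2, RGS13 and LMO2 show H3K27ac to the right of H3K4me3. So do IKZF3 and TCF4, where the peaks of the marks lie at different places.

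H3K27ac covered more of B-cell list genes than of protein-coding genes at large, over a wide range. With 10000 bp added on each side, H3K27ac peaks covered a median of 23.9% of a B-cell list gene, 16.6% of a ubiquitous gene, 0.316% of an other-lineage gene and 2.51% of all protein-coding genes. TCF4 had 104 separate peaks over 141693 bp, EBF1 63 peaks over 96185 bp and BACH2, a repressor of plasma cell differentiation, 63 peaks over 58633 bp. The highest shares of the 3 lists were at germinal centre genes, 85.9% at DTX1, 79.1% at CXCR4, 72.6% at GCSAM and 68.8% at S1PR2. S1PR2 is the sphingosine receptor that confines germinal centre B cells. Gene length enters this share through the added flanks.

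The promoter sequences printed above sit within a general pattern. RefSeq gave 250 upstream bases for 15810 protein-coding genes, 46 of the 60 in the B-cell lists among them, with none from chromosome 8 used. For each gene 1 start was used, the one with most marks and then the farthest upstream. The choice among several starts therefore depended on the marks themselves. The median number of CpG dinucleotides was 21 in the 9049 promoters with both marks and 21 in the 1087 with H3K4me3 only, but 4 in the 135 with H3K27ac only and 5 in the 5539 with neither. H3K4me3 therefore went with CpG-rich starts whether or not H3K27ac was there. B-cell receptor and surface genes departed from this, since the median CpG number of their 14 matched promoters was 4. The 16 B-lineage transcription factors had 21.5 and the 16 ubiquitous genes 21.5. A low median was not particular to the receptor genes. The myeloid list and the erythroid and megakaryocyte list, mostly with neither mark, also had 4. The T-cell and non-blood lists had 6.5 and the plasma cell list 11. Among all promoters with fewer than 5 CpG, 373 of 3091 (12.1%) carried both marks. Of the 12 such promoters in the 3 B-cell lists, 10 did (83.3%), CD79A and RGS13 among them, as did all 4 in the plasma cell list. RGS13, a germinal centre regulator of G-protein signalling with 1 CpG in its window, lay under an H3K4me3 peak of 5251 bp at 10.8 and 11.5 RPKM.

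Short motifs were searched on both strands of the same windows. The octamer ATTTGCAT, known from immunoglobulin promoters, was in 264 promoters (1.67%), and among the B-cell lists in VPREB3, SERPINA9 and MEF2B, which had H3K4me3 only, neither mark and both marks. GGGCGG, the core of a GC box, was in 56.3% of all promoters, 69.6% of those with both marks and 22.96% of those with H3K27ac only. TATAAA was in 9.32% of all promoters and 5.00% of those with both marks, and CCAAT in 34.5% and 36.3%. These counts describe letters in the windows and not binding of any factor.

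**Figure D4:**
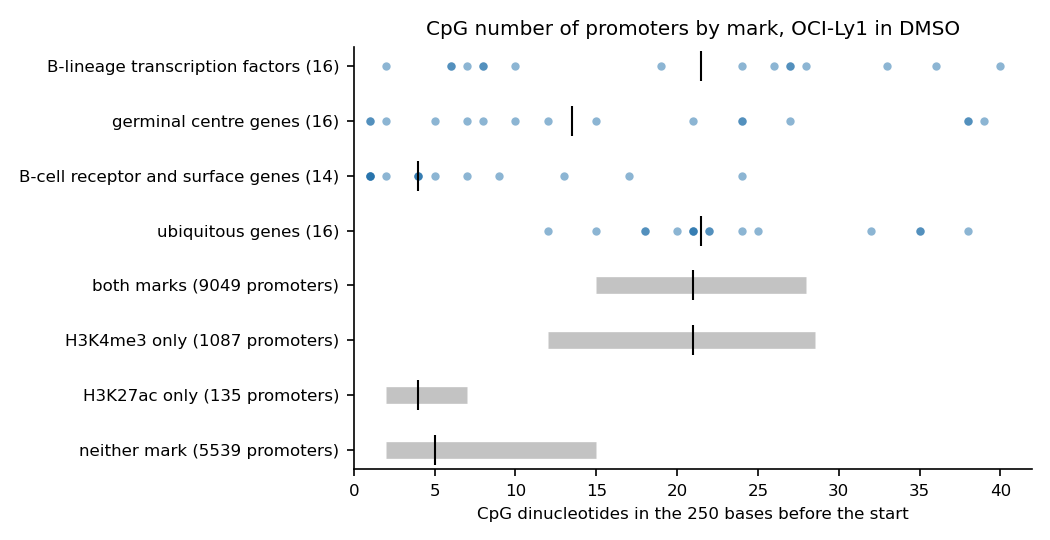
Number of CpG dinucleotides in the 250 bases before the gene start, as the middle range (grey bar, lower to upper quartile) and median (black line) of promoters by mark, and as single promoters (dots) with their median for 4 gene lists. Promoters with H3K4me3 have a median of 21 CpG with or without H3K27ac, and B-cell receptor and surface genes have a median of 4.

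The strongest H3K27ac was again on chromosome 8. The peak at chr8:95225112-95231946, 6835 bp long and 12967 bp from CFAP418, stood highest with 130.5 and 130.3 RPKM. Neighbouring peaks at chr8:130040868-130043565 and chr8:130043771-130049041, near ASAP1, had 125.2 and 127.2 RPKM and 122.6 and 119.7 RPKM. The next strongest had 96.3 and 96.4 RPKM, so these 3 peaks stood apart in both libraries. Of the 10 strongest 9 were on chromosome 8, and 53 of the 100 strongest. The exception was on chromosome 16, at chr16:46389464-46390085, 622 bp long and 188506 bp from the nearest protein-coding gene, with 88.9 and 73.8 RPKM. Its libraries lay further apart than those of any other of the 10, and no gene is ascribed to it. Among enhancer-like peaks, away from gene starts and without H3K4me3, 8 of the 10 strongest were on chromosome 8, with genes placed by their ends. They included chr8:127748012-127749580, 5061 bp from MYC, with 64.2 and 65.3 RPKM. The other 2 were on chromosome 14 at chr14:105580535-105584575 (65.7 and 68.0 RPKM) and chr14:105575455-105578646 (60.4 and 56.5 RPKM), 2362 bp and 8291 bp beyond the immunoglobulin constant segment IGHA2.

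Without chromosomes 7, 8 and 14 the median of the 10 strongest H3K27ac peaks fell from 87.8 to 50.2 RPKM, and that of the 10 strongest enhancer-like peaks from 70.0 to 39.1 RPKM. In that ranking the chromosome 16 peak came first. It was followed by chr11:111434713-111444519 (71.1 and 73.0 RPKM), which with chr11:111426032-111433323 (50.4 and 51.8 RPKM) lay in BTG4 beside POU2AF1. The strongest enhancer-like peak there was chr4:40298557-40304124, with 44.2 and 47.1 RPKM, and the second lay in ETV6, a transcriptional repressor of the ETS family, with 43.1 and 40.2 RPKM.

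Of the 10 widest H3K27ac peaks 2 lay in immunoglobulin light chain loci, and the others were at separate loci. The longest, 54021 bp at chr3:187934472-187988492, covered the noncoding gene LINC01991 between BCL6 and LPP, at 29.0 and 29.1 RPKM. The second, 38287 bp at chr22:22909010-22947296, lay in the immunoglobulin lambda locus at 44.4 and 46.2 RPKM, and the fifth, 33663 bp at chr2:88829333-88862995, in the kappa locus at 28.9 and 29.8 RPKM. BCL2 had the third, 37192 bp at chr18:63126157-63163348 inside the gene at 43.4 and 45.3 RPKM. Others in the 10 were at C14orf132 (34856 bp), between genes on chromosome 3 at 129725 bp from TBL1XR1 (30850 bp), in ETV6 (30085 bp), over PLEKHF2 (28754 bp), in MEGF11 (26589 bp) and at RHOH (26357 bp). RHOH was the only gene among both the 10 widest H3K4me3 and the 10 widest H3K27ac peaks by its start, and BCL2 had its wide H3K27ac away from its start.

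Joining H3K27ac peaks within 10000 bp gave 22666 clusters, of which 11230 were single peaks. The 100 clusters with most reads held 13.9% of all reads in H3K27ac peaks and the top 500 held 33.1%. The first, 110431 bp over ASAP1 and CYRIB on chromosome 8, took 3558.6 and 3540.7 reads per 1000000 reads in peaks, and the second, 225853 bp over CUX1 on chromosome 7, took 3399.0 and 3438.4. Then came ETV6 (3037.4 and 3039.2), a stretch of 211835 bp over DTX1 and its neighbours (2858.5 and 2951.3), and IRF2, an interferon regulatory factor (2827.6 and 2907.2). The lambda locus with IGLL5 was next (2774.1 and 2890.0), and POU2AF1 with BTG4 followed (2689.5 and 2686.4). TPD52, MSI2 and NDUFAF6 completed the 10, and NDUFAF6 was the densest of them with 63.1 and 61.3 RPKM over 40306 bp of peaks. The libraries of the DTX1 stretch, IRF2 and the lambda locus overlapped, as did those of POU2AF1 and TPD52 and of TPD52 and MSI2, so these orders are not firm.

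The ratio of the marks was then tested peak by peak. For every H3K4me3 peak under H3K27ac the acetylated peak with the largest overlap was taken as its partner. This gave 16503 pairs, of which 16471 had enough counts for edgeR's quasi-likelihood test. Partners may differ from the strongest peak at the start given above for single genes. Counts were offset for the length of each peak and scaled so that the bulk of pairs lay near a log2 ratio of 0, so a positive value means more H3K4me3 for its H3K27ac than in the bulk. With Benjamini-Hochberg adjustment at 0.05, 13767 pairs (83.6%) departed from 0, 7209 (43.8%) towards H3K4me3 and 6558 (39.8%) towards H3K27ac. With so many calls a single call says little. Those with a log2 ratio of 1 or more in size were 7.75% of pairs towards H3K4me3 and 30.3% towards H3K27ac. Where scaling was by total reads in peaks instead, 66.8% of calls were on the H3K4me3 side, against 52.4% of the calls above, so the side of a pair near 0 is not fixed by these data.

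The marks parted by place and by width. At gene starts the median log2 ratio was 0.42 and 62.9% of 10873 pairs were called towards H3K4me3. Away from gene starts it was -2.08 and 83.4% of 5504 pairs were called towards H3K27ac. Pairs whose H3K4me3 peak was under 1000 bp had a median of -2.51, those of 1000 to 2000 bp 0.29 and those of 2000 to 4000 bp 0.43. Those of 4000 bp or more had 0.016, so per kb of peak the ratio was lower at the widest H3K4me3 domains than at common promoters. Each mark was averaged over its own peak, as at PAX5 over 14615 bp of H3K4me3 and 7199 bp of H3K27ac. Whether unequal lengths entered this difference was not tested. Levels of the marks went together weakly over all 16503 pairs (Spearman 0.344), more at gene starts (0.495) and less away from them (0.241). Widths went together at gene starts (0.588) and hardly away from them (0.047). These correlations are across pairs that share libraries and, in part, length, and carry no p.

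Pairs furthest towards H3K4me3 were ordinary promoters over a small H3K27ac peak. The first was the shared start of GORASP1, a Golgi protein, and TTC21A, at chr3:39106514-39108373 with H3K4me3 of 45.7 and 44.8 RPKM over H3K27ac of 5.29 and 3.03 RPKM, and a log2 ratio of 2.83 (SE 0.26, edgeR adjusted p = 3.48e-20). ULK4 followed with 43.6 and 42.9 RPKM over 6.85 and 4.58 RPKM (2.30, SE 0.19). The others were AP3B2, ELOVL4, GPR160, TAF3, EXOC3, DNAJC1, CAMSAP3 and BMAL1, the circadian clock factor, the last at 1.97. GORASP1, TTC21A, ULK4 and GPR160 lie on chromosome 3 and TAF3 and DNAJC1 on chromosome 10. The median H3K27ac of gene starts was low on both chromosomes, and whether this entered the ranking was not tested. The H3K27ac peaks of these 10 pairs were 229 to 940 bp long and weak, so this end of the ranking also rests on few H3K27ac reads. AP3B2 had 4.01 and 2.58 RPKM over 229 bp (SE 0.41), and CAMSAP3 had 1.57 and 4.05 RPKM over 292 bp (SE 0.40). At the other end all 10 were H3K4me3 peaks of 236 to 567 bp with at most 3.55 RPKM in a library. They lay inside or across larger H3K27ac peaks, as in PARN, RPTOR, IDH2 and PLEKHF2 or at the start of PDCD1. PLEKHF2 had 3.55 and 1.57 RPKM of H3K4me3 beside 53.2 and 49.4 RPKM of H3K27ac. The H3K4me3 count there was so low that the ratio mainly says that a large H3K27ac peak held a barely marked H3K4me3 interval.

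**Figure D5:**
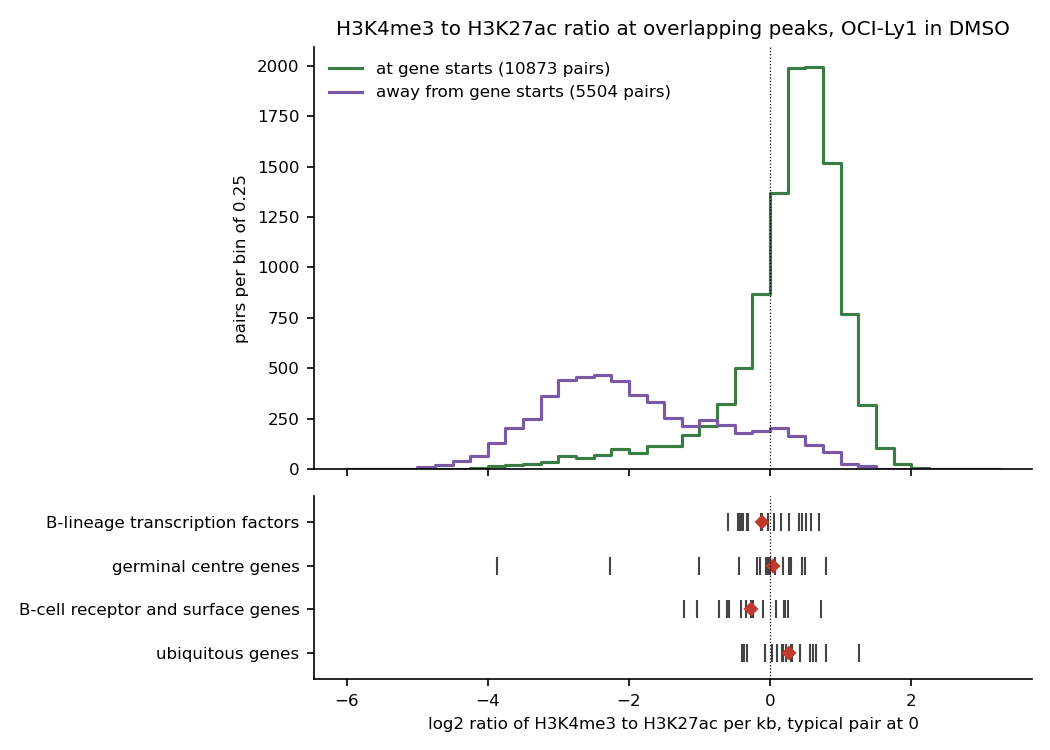
Number of pairs by log2 ratio of H3K4me3 to H3K27ac in bins of 0.25 (top), at gene starts in green and away from them in purple, and the ratio of each gene of 4 lists (bottom, ticks) with its median (red diamond). Gene starts have a median of 0.42 and other pairs a median of -2.08, and the list medians run from -0.26 for B-cell receptor and surface genes to 0.26 for ubiquitous genes.

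The 3 B-cell lists together had a lower median ratio than all gene starts, and the lists differed among themselves. Of 55 pairs at the 3 B-cell lists 42 were called (76.4%, against 83.6% of all pairs), 15 towards H3K4me3 and 27 towards H3K27ac. These were 27.3% and 49.1%, against 62.9% and 17.3% of all pairs at gene starts. Pairs whose H3K4me3 peak was 4000 bp or more had 39.2% and 35.6%, with a median of 0.016. Of the 60 list genes 32 had so wide a peak at their start, and whether width entered the difference was not tested. List pairs used each gene's strongest H3K4me3 peak, and over such peaks of all protein-coding genes the shares were 69.6% and 10.8%. The median of the B-cell lists was -0.11, against 0.42 for all pairs at gene starts and 0.48 for those strongest peaks. The 20 ubiquitous genes had a median of 0.26, with 13 called towards H3K4me3 and 3 towards H3K27ac. B-cell receptor and surface genes had the lowest median, -0.26, with 2 of 18 towards H3K4me3 and 11 towards H3K27ac. The B-lineage transcription factors had a median of -0.11 with 6 and 10 of 19, and the germinal centre genes a median of 0.037 with 7 and 6 of 18. The difference between lists was not tested. Scaling by total reads in peaks turned these sides, to 44 towards H3K4me3 and 5 towards H3K27ac for the B-cell lists, and moved the median of all pairs from 0.09 to 0.74. The distance between the B-cell lists and all gene starts was -0.53 under both scalings, and between -0.74 and -0.50 over the alternatives tried.

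Single genes showed the span. Furthest towards H3K27ac was LMO2 (-3.86, SE 0.22), the weakly marked start already named. PLCG2, the phospholipase of B-cell receptor signalling, was at -1.22 (SE 0.067), with H3K4me3 of 18.1 and 16.3 RPKM beside H3K27ac of 26.2 and 25.4 RPKM. CD72, a B-cell coreceptor, was at -1.04 (SE 0.054) and RGS13 at -1.01 (SE 0.071). Towards H3K4me3 the leading genes were NEIL1, a DNA glycosylase, at 0.79 (SE 0.076), CD40, the receptor for T-cell help, at 0.73 (SE 0.13), IRF8 at 0.70 (SE 0.14) and FOXO1 at 0.58 (SE 0.062). Among plasma cell genes IRF4 was at 1.02 (SE 0.064), while TNFRSF17, which encodes BCMA, was at -1.59 (SE 0.060) and CD27 at -1.25 (SE 0.052). All of these passed edgeR's adjusted threshold, and none turned sign or lost its call under the alternatives that tested it. Their sizes moved with scaling and the length offset, at CD72 between -2.47 and -0.39.

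H3K4me3 without any overlapping H3K27ac peak was seldom strong. The strongest of the 4694 such peaks was at ADAM19, a membrane metalloprotease, with 42.1 and 39.3 RPKM over 2714 bp, and CCDC184 followed with 38.8 and 37.9 RPKM. The others were a peak on chromosome 8 at 25546 bp from IMPA1 and the starts of DNAH7, GNG10, FADS3, DUSP18, ZNF287 and VWA3B and the shared start of DRC3 and TOM1L2, the last with 30.7 and 31.1 RPKM. DNAH7 encodes a dynein of cilia and FADS3 a fatty acid desaturase. No gene of the lists was among them, and the value just outside was 30.7 RPKM, so no gap follows the 10. As means of the libraries, the 10 ran from 40.7 RPKM at ADAM19 to 30.9 RPKM at DRC3 and TOM1L2. The median of H3K4me3 gene starts with H3K27ac was 32.8 RPKM.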

How the data were processed

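ChIP-seq reads were counted by the authors, and the deposited tables hold raw counts per consensus peak, 1 table a mark, with peak lengths. Per the file headers, featureCounts 2.0.1 required a fraction of 0.2 of a read in the peak and was set for paired reads, while the labels give single reads of 50 bp. Per the submitters' processing notes, Trim Galore 0.6.7, BWA 0.7.17-r1188, Picard 2.27.4, MACS2 2.2.7.1, deepTools 3.5.1, edgeR 3.42.4 and the build GRCh38 were used. No value column lay outside the samples. Coordinates are those deposited with 1 added to the start.

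From the DMSO columns, RPKM was computed by peak length and total reads in peaks. Genes came from RefSeq (GRCh38.p14): 38151 protein-coding and long noncoding genes, 27195 with a start from its promoter sequences and 10956 placed by either gene end. The pair test used edgeR 4.0.16 in R 4.3.3 (glmQLFit, glmQLFTest, TMM on length-scaled counts, mark as the only term) and was tested on simulated data. Alternatives were DESeq2 1.42.0, other scalings, filters and overlaps, and leaving out each library. Named were the 10 strongest, widest or most shifted regions of each set, the 10 largest clusters, and the list genes. List ratios are printed for called genes of at least 0.5 on the log2 scale. Some list genes enter the counts and are not reported here by name. Members and lists were chosen with earlier results of these data known. p-values measure only the spread between these libraries.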

Additional observations from a re-analysis of the deposited data

How the results depend on the processing

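The share of H3K4me3 peaks under H3K27ac was 56.7% where at least 50% of the H3K4me3 peak had to be covered, 41.6% for at least 50% of both peaks, 79.5% for peaks with at least 1 RPKM, and 78.8% to 78.9% without a replicate. For H3K27ac it was 26.7% and 13.9% at the stricter overlaps, 31.4% at 1 RPKM and 31.3% without a replicate. The count of called pairs fell to 7628 of 10069 tested with a mean count of at least 50 and to 6832 of 8834 with 50% overlap of both, which test fewer pairs. It was 12493 with DESeq2, 15088 with scaling by total reads and 12684 to 13340 without a library. The Spearman correlation over pairs was 0.265 on raw counts, 0.525 with 50% overlap of both, and 0.322 to 0.346 without a replicate. The B-cell list genes with both marks numbered 53 to 55 under every alternative for them. With the replicate number as a replicate block 13761 pairs were called, and no printed call changed. The numbers pair nothing by the labels, and deviations of same-numbered libraries correlated at 0.033. Scaling by total reads turned the ratio of TCF3 (to 0.052), BLNK (0.069), FCRLA (0.040), VPREB3 (0.044) and PRDM1 (0.060), none of them called there, and VPREB3 stood at 1.06 without an offset for length. The cause was not tested. Leaving out chromosomes 7, 8 and 14, added after the data were seen, moved the median of the 10 strongest H3K4me3 gene starts from 82.8 to 70.2 RPKM. The H3K27ac counts limit single weak peaks.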

Other observations

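The immunoglobulin loci, looked at after the widest peaks had been seen, carried both marks over the constant segment and all 5 joining segments at kappa. At lambda all 4 constant segments had both, with H3K4me3 at 5 and H3K27ac at 7 of 7 joining segments. At the heavy chain only 2 of 6 joining segments overlapped each mark. Within the span of these segments and 10000 bp on each side, H3K27ac covered 96.2% of the kappa region, 96.6% of the lambda region and 21.1% of the heavy chain region. H3K4me3 covered 45.7%, 42.6% and 9.43%. The mean H3K27ac level over peaks there was 25.9 and 26.7 RPKM at kappa, 35.3 and 37.2 RPKM at lambda and 26.1 and 26.7 RPKM at the heavy chain. The widest H3K4me3 peak, 10424 bp at chr2:88856982-88867405, covered the kappa constant gene IGKC and all 5 kappa joining segments, at 21.3 and 19.0 RPKM.

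Among variable segments H3K4me3 overlapped 12 of 44 kappa, 6 of 38 lambda and 3 of 48 heavy chain variable segments, and H3K27ac 5, 16 and 5 of them. None of the 27 heavy chain diversity segments overlapped either mark. At the heavy chain the highest H3K4me3 level of the 3 widest peaks, 49.3 and 46.6 RPKM, was that of the peak at chr14:105860740-105864046. Of the 9 heavy chain constant segments 5 overlapped H3K4me3 and 7 overlapped H3K27ac. These are germline coordinates, and rearrangement of the loci in the line was not tested.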
